A study of Homo sapiens with 6 samples.

Results

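The 5 NF-κB subunit genes (NFKB1, NFKB2, REL, RELA and RELB) and 5 inhibitor and feedback genes of the pathway (NFKBIA, NFKBIE, NFKBIZ, TNFAIP3 and BIRC3) were examined in oral squamous carcinoma cells under low oxygen. They were taken by gene symbol, 10 of the 21776 genes in the count table, and all 10 passed the filter on low counts that left 14255 genes for testing. The cells were SCC25, an established line from a human oral squamous cell carcinoma. They are labelled as wild type and were grown in DMEM/F12 medium with serum. In the hypoxia group the cells spent 12 h in 1% O2 with 5% CO2 and nitrogen, and in the normoxia group 12 h in 5% CO2 and air, with 3 RNA-seq libraries in each group. The libraries are labelled SCC25, while the legend of the study's enrichment panel names SCC9, another oral carcinoma line. The libraries of hypoxia replicates 1, 2 and 3 held 30186813, 36076088 and 32272716 counted reads. Those of normoxia replicates 1, 2 and 3 held 37278703, 29637189 and 29981208. No label says that replicates came from separate cultures, so the p-values measure the spread between these libraries, which may be technical, in a single cell line.

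NF-κB factors are dimers of 5 related proteins. In resting cells, inhibitors of the IκB family hold most dimers in the cytoplasm, and a kinase complex called IKK, switched on by cytokine and Toll-like receptors, marks the IκB proteins for destruction so that the dimers reach the nucleus. Among the genes the dimers then switch on are their own inhibitors, which ends the response. In squamous epithelia and their tumors the pathway is known for driving inflammatory cytokines, chemokines and survival genes.

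The labelled cell type was compared with its markers. Of 9 squamous epithelial markers 8 were tested, of which 3 rose, 4 fell and 1, TP63, did not pass. EPCAM stood at 317 CPM in normoxia and 249 in hypoxia, KRT5 at 126 and 111, and SFN at 210 and 120. KRT6A fell by 4.12 on the log2 scale, while CDH1, DSG3 and KRT17 rose by 1.35, 1.35 and 1.06. CPM are read counts scaled to one common library total with edgeR's TMM factors. KRT14, a basal keratin, had 1 count in normoxia replicate 2 and none in the other libraries. Of 9 leukocyte markers, 7 were in the table and 4 of those had at most 3 counts in every library, including PTPRC, the pan-leukocyte antigen, and CD3E. The summed leukocyte list was 33.9, 37.8 and 39.9 CPM in hypoxia and 33.7, 33.1 and 35.9 in normoxia, most of it CD68. The fibroblast list summed to 20.9, 18.4 and 16.7 CPM in hypoxia and 3.92, 3.11 and 5.41 in normoxia, most of it COL1A1. COL1A1, CD14 (5.83 against 1.07 CPM) and CDH5 (0.950 against 0.433 CPM) were higher under hypoxia in the edgeR test. The part of the squamous, fibroblast, CD14 and CDH5 transcripts in the results below was not tested.

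Normoxia replicate 3 stood somewhat apart from the other normoxia libraries. Its counts differed from theirs with a chi-square per gene of 9.97 and 10.8, where the other normoxia pair gave 6.82 and the hypoxia pairs 4.90 to 8.25. In 12 of 14 hypoxia-induced genes it was the highest normoxia library, for example NDRG1 at 409 against 163 and 140 CPM and CA9 at 67.7 against 32.2 and 27.3 CPM. Without it, the same 7 of the 10 genes passed the test and NFKB2 passed as well. The log2-fold changes without it are given below for NFKBIE and REL, which it moved most, and for NFKB2, whose call changed.

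Because these genes include classical NF-κB feedback loops, the 250 bases before the first transcription start that RefSeq lists for each were read for the κB decamer, the sequence that NF-κB dimers are known to bind. Promoters (GRCh38.p14) were found for 8 of the 10 genes, all but RELB and NFKBIE, and 6 of the 8 held a match on either strand, against 9.57% of all 27305 first-listed promoters of the same length. The first promoters of NFKB2 and RELA held none. Further starts are listed for NFKB1, NFKB2, RELA and NFKBIZ, 5 in all, and matches lie before 3 of them, both of those of NFKB2 and that of NFKBIZ, against 9.96% of all 35116 listed starts. A match is a stretch of letters and not a measured binding site. The 6 stretches are printed 5′ to 3′ on the strand of the gene, with capitals on the κB matches and 20 bases on each side, because they place the searched letters of the feedback genes side by side.
NFKB1 (chr4:102501290-102501339, plus strand): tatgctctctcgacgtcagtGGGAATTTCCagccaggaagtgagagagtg
REL (chr2:60881507-60881557, plus strand): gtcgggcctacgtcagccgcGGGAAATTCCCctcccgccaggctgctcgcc
NFKBIA (chr14:35404801-35404850, minus strand): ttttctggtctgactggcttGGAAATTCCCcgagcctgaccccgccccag
NFKBIZ (chr3:101827747-101827796, plus strand): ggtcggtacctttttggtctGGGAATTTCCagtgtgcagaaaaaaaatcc
TNFAIP3 (chr6:137867172-137867233, plus strand): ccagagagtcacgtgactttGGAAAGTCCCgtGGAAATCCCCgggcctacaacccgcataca
BIRC3 (chr11:102317265-102317378, plus strand): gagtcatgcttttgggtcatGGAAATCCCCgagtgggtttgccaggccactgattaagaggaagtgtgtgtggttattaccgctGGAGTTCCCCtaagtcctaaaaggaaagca
NFKB1 and NFKBIZ carried the same decamer, GGGAATTTCC, at positions -49 to -40 and -223 to -214 from the start. TNFAIP3 and BIRC3 had 2 separate matches each, and the capitals of REL hold 2 overlapping matches, 1 on each strand. The core of the hypoxia response element was searched as ACGTG, present in 18.7% of all promoters, and as GCGTG, present in 31.9%, on both strands and at the first-listed starts. ACGTG was found in 1 of the 8 promoters, that of TNFAIP3, where it lies within the 6 letters cacgtg before the first κB match. GCGTG was found in 4 of the 8, those of NFKB1, REL, NFKBIZ and BIRC3.

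Under hypoxia the 10 genes moved in both directions. TNFAIP3, BIRC3, REL and NFKBIE rose, NFKBIZ, NFKB1 and RELB fell, and NFKB2, RELA and NFKBIA did not pass the test (edgeR quasi-likelihood test, Benjamini-Hochberg adjustment over 14255 genes, threshold 0.05). So 7 of the 10 genes passed, where 77.8% of all genes tested did, 4 of them higher (background 39.2%) and 3 lower (background 38.5%). The share of these genes that passed was thus near the background. In 9 of the 10 genes the 3 hypoxia libraries did not overlap the 3 normoxia libraries, which held for 80.5% of all genes tested. Their median log2-fold change was 0.047, beside 0.023 over all genes tested. A change beyond 2-fold was seen for NFKBIZ, in the lower direction (background 10.5%), and for none of the 10 genes in the higher direction (background 19.9%). The RNA came from bulk cultures, so fewer cells carrying a transcript and less of it per cell cannot be told apart.

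**Figure D1:**
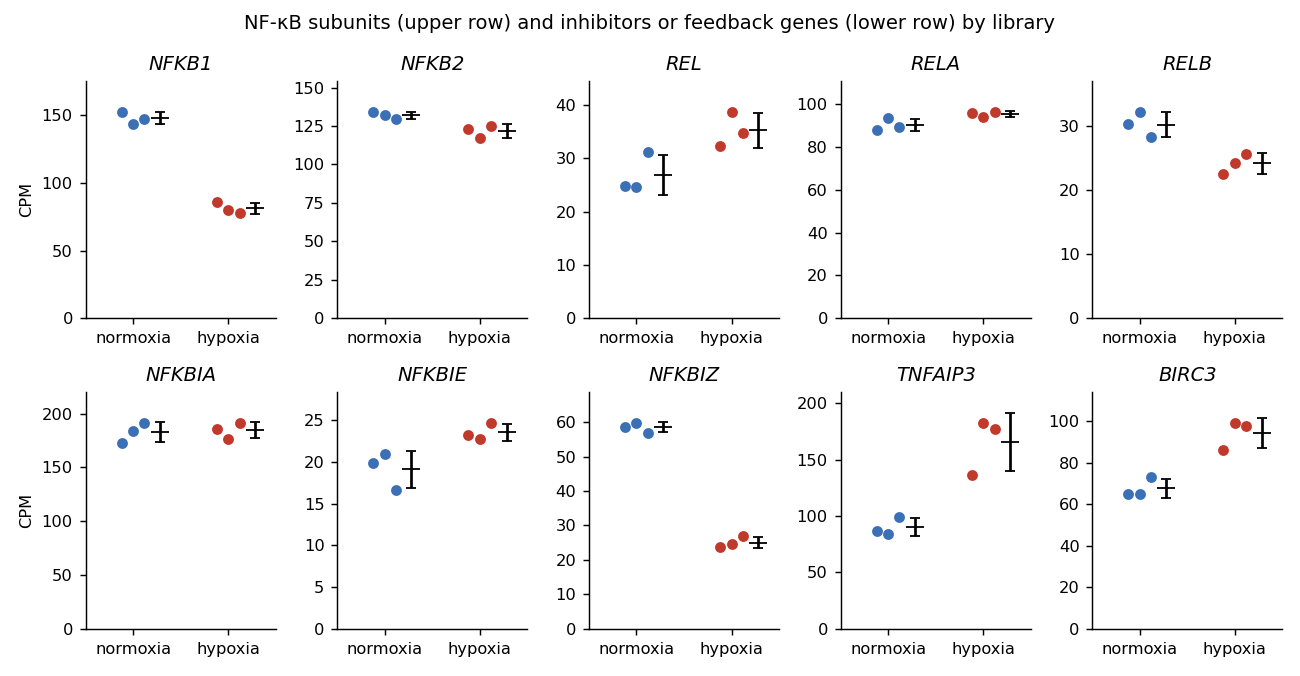
CPM of the 10 genes in each of the 6 libraries (blue, normoxia; red, hypoxia), with the mean and SD of 3 libraries beside the points and each vertical axis starting at 0. NFKB1 and NFKBIZ separate widely downward and TNFAIP3 upward, while the NFKBIA points overlap.

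NFKB1 encodes p105, the precursor of the p50 subunit. Its level was 85.7, 80.4 and 77.9 CPM in the hypoxia libraries and 153, 144 and 147 CPM in the normoxia libraries. Every hypoxia library lay far below every normoxia library, and the spread within a group was small beside the gap. The means were 81.3 ± 3.97 and 148 ± 4.53 CPM (SD, n = 3), a 1.82-fold lower level (log2-fold change -0.86, SE 0.055, edgeR adjusted p = 1.92e-10). NFKB2 encodes p100, the precursor of p52 and the carrier of the noncanonical pathway. It measured 123, 117 and 125 CPM under hypoxia and 134, 132 and 129 CPM under normoxia. All hypoxia libraries were below all normoxia libraries, by a few CPM. The log2-fold change of -0.12 (95% interval -0.23 to -0.0058, edgeR adjusted p = 0.0517) missed the threshold, and without normoxia replicate 3 it passed, at -0.15 (edgeR adjusted p = 0.0160). Where at least 10 counts were required in every library it was -0.038 (edgeR adjusted p = 0.491), a setting that moved the median log2-fold change of all shared genes by 0.077.

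RELA encodes p65, the subunit with the main activation domain of the canonical pathway. Its level was 95.9, 94.1 and 96.4 CPM under hypoxia and 88.0, 93.6 and 89.4 CPM under normoxia. The groups did not overlap, but the highest normoxia library came within 1 CPM of the lowest hypoxia library. The log2-fold change was 0.08, with a 95% interval of -0.031 to 0.19 (edgeR adjusted p = 0.171), which holds a fold of 0.979 to 1.14. RELA did pass where at least 10 counts were required in every library, with a log2-fold change of 0.16 (edgeR adjusted p = 0.00969), and in the limma test of FPKM (0.12, adjusted p = 0.0163). These settings moved the median log2-fold change of all shared genes by 0.077 and 0.050, about as far as they moved RELA. The change of RELA was smaller with no filter on low counts (0.039, edgeR adjusted p = 0.591), where that median moved by -0.041, and without normoxia replicate 1 (0.047, edgeR adjusted p = 0.525).

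REL encodes c-Rel, a subunit best known in lymphocytes. It was measured at 32.3, 38.7 and 34.7 CPM under hypoxia and 24.8, 24.6 and 31.3 CPM under normoxia. Normoxia replicate 3 stood apart from the other normoxia libraries and came close to hypoxia replicate 1. REL rose 1.31-fold (log2-fold change 0.39, SE 0.094, edgeR adjusted p = 0.0011), and by 0.50 on the log2 scale without normoxia replicate 3. In the GENCODE v29 annotation 43.3% of the exonic bases of REL also belong to AC010733.2 on the same strand, so reads of the pair may be mixed. RELB, the usual partner of p52, measured 22.5, 24.3 and 25.7 CPM under hypoxia and 30.3, 32.2 and 28.2 CPM under normoxia. All hypoxia libraries were lower, and RELB fell by 0.32 on the log2 scale (SE 0.080, edgeR adjusted p = 0.0014), a 1.25-fold lower level.

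NFKBIA encodes IκBα, the inhibitor that binds p65 and p50 dimers and is the best known early feedback gene of the pathway. Its level was 186, 177 and 191 CPM under hypoxia and 173, 184 and 192 CPM under normoxia. The groups overlapped almost completely, and the highest and the lowest library were both normoxia libraries. The log2-fold change was 0.014 (SE 0.055, edgeR adjusted p = 0.824), and the 95% interval of the fold, 0.931 to 1.09, bounds the change at this scaling. Where at least 10 counts were required in every library it was 0.091 (edgeR adjusted p = 0.134), a setting that moved the median of all shared genes by 0.077. Its sign turned, without passing, when low counts were not filtered (-0.027), which moved the median of all shared genes by -0.041, and without hypoxia replicate 3 (-0.017) or normoxia replicate 1 (-0.039). Of all genes tested, 98.8% had a larger change in size than NFKBIA.

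NFKBIE encodes IκBε, a slower cytoplasmic inhibitor. It measured 23.3, 22.7 and 24.7 CPM under hypoxia and 19.8, 20.9 and 16.6 CPM under normoxia. The hypoxia libraries were all higher, and the normoxia libraries were the more scattered. NFKBIE rose 1.23-fold (log2-fold change 0.30, SE 0.093, edgeR adjusted p = 0.00723), and without normoxia replicate 3, the lowest library, the change was 0.19 (edgeR adjusted p = 0.0488). NFKBIZ encodes IκBζ, an atypical nuclear member of the family that is known to act on DNA-bound dimers and to help switch on genes of the later response. Its level was 23.7, 24.6 and 26.8 CPM under hypoxia and 58.6, 59.8 and 57.0 CPM under normoxia. The groups were far apart, and the SD within them was 1.60 and 1.44 CPM. NFKBIZ was 2.33-fold lower (log2-fold change -1.22, SE 0.066, edgeR adjusted p = 2.27e-11), the largest change among the 10 genes. Even so, 23.0% of all genes tested had a larger change in size.

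TNFAIP3 encodes A20, a ubiquitin-editing enzyme that shuts off signaling below the TNF receptor. It measured 136, 183 and 177 CPM under hypoxia and 87.1, 83.9 and 99.4 CPM under normoxia. Every hypoxia library was above every normoxia library, with hypoxia replicate 1 well below the other hypoxia libraries. TNFAIP3 rose 1.84-fold (log2-fold change 0.88, SE 0.090, edgeR adjusted p = 9.10e-08), the largest increase of the 10 genes, and 36.3% of all genes tested moved more. BIRC3 encodes cIAP2, a ubiquitin ligase of the TNF receptor complex that also helps to degrade the noncanonical kinase NIK. It measured 86.0, 99.2 and 97.5 CPM under hypoxia and 65.0, 64.7 and 72.9 CPM under normoxia. Again hypoxia replicate 1 was the lowest of its group, still above all normoxia libraries. BIRC3 rose 1.40-fold (log2-fold change 0.48, SE 0.066, edgeR adjusted p = 3.76e-06). BIRC2, which encodes the related cIAP1, rose by 0.26 on the log2 scale (edgeR adjusted p = 4.74e-04), and the summed counts of BIRC2 and BIRC3 rose by 0.37. With 3 libraries against 3, the exact two-sided permutation test of a single gene cannot go below 0.1, which was its value for each of the 10 genes but NFKBIA (0.8).

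**Figure D2:**
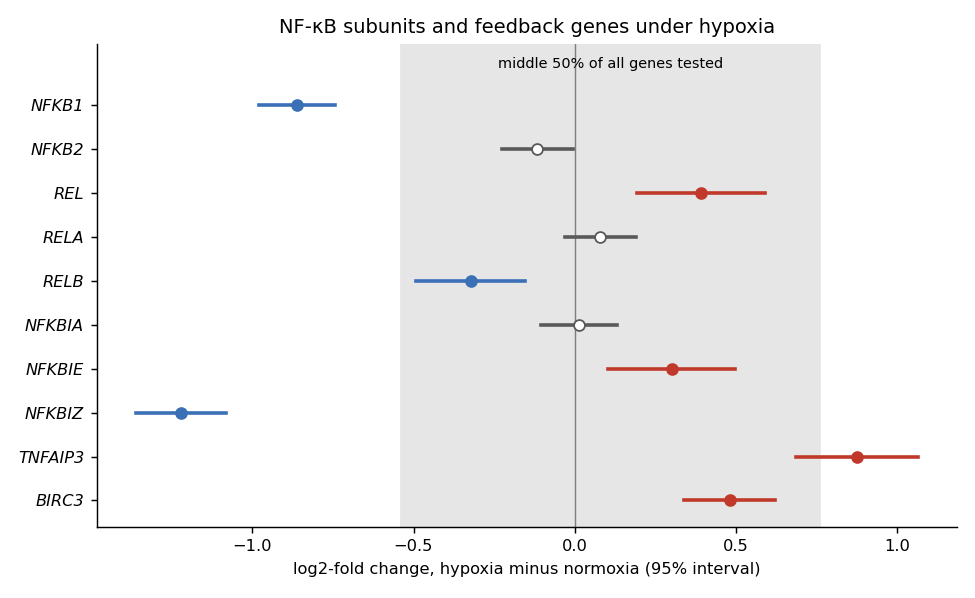
Log2-fold change of each gene, hypoxia minus normoxia, with its 95% interval from the edgeR fit (red, higher; blue, lower; open, not past the test). The grey band spans the middle 50% of all genes tested, -0.54 to 0.76, and NFKB1, NFKBIZ and TNFAIP3 have their points outside it.

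Levels of different genes were compared as FPKM, which divides by gene length. The lengths are those implied by the deposited FPKM, and their source is not given. They were 2547 bases for RELA, 8616 for TNFAIP3 and 1559 for NFKBIA. The merged GENCODE v29 exons of these genes hold 5464, 5051 and 2373 bases. Any order of genes by FPKM, here and below, therefore depends on these lengths, while the change of a single gene between groups does not. In normoxia NFKBIA was the most abundant of the 10 transcripts, at 115 ± 5.39 FPKM, and REL the least, at 2.32 ± 0.337 FPKM (SD, n = 3). RELA (34.9 ± 0.531), NFKB2 (34.4 ± 0.934) and NFKB1 (32.6 ± 1.54) followed NFKBIA, and the values of neighbours in that order overlapped between libraries. NFKBIZ (13.7 ± 0.278) overlapped RELB (13.1 ± 0.733), and TNFAIP3 (10.3 ± 1.00) overlapped BIRC3 (9.51 ± 0.707). Under hypoxia NFKBIA (120 ± 3.28 FPKM) and REL (3.14 ± 0.324 FPKM) kept the ends of the order. Between them, RELA (38.1 ± 0.0184) and NFKB2 (32.8 ± 0.741) stood apart from NFKB1 (18.5 ± 0.934), whose libraries now overlapped those of TNFAIP3 (19.5 ± 3.10). NFKBIZ, at 6.07 ± 0.355 FPKM, was next to last under hypoxia, below BIRC3 (13.7 ± 1.13), RELB (10.8 ± 0.701) and NFKBIE (10.2 ± 0.337).

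**Figure D3:**
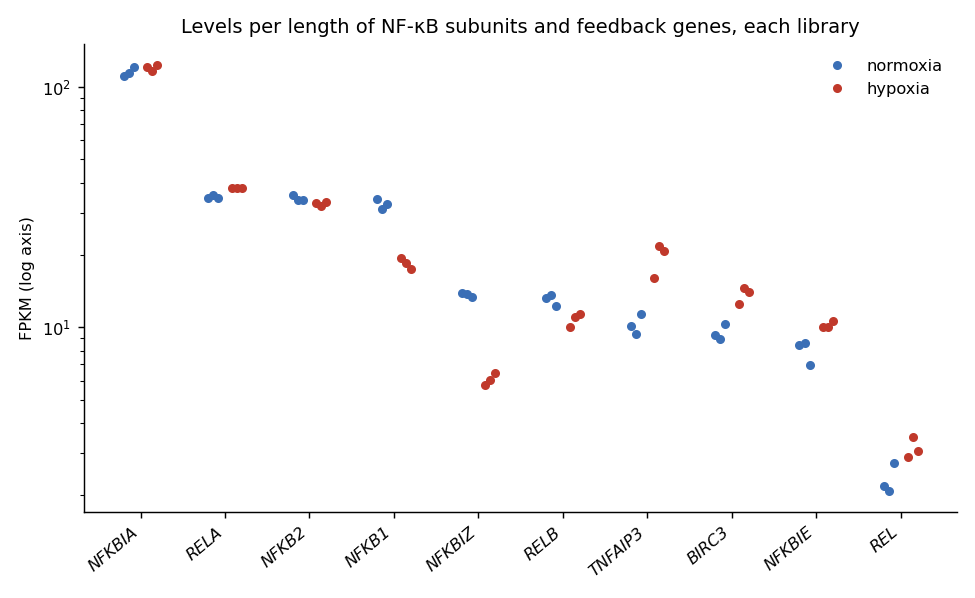
FPKM of the 10 genes in each library on a log axis, ordered by their normoxia mean (blue, normoxia; red, hypoxia). NFKBIA lies above all others in both groups, and NFKB1 drops from the level of RELA and NFKB2 to that of TNFAIP3.

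The balance between partners was read as a ratio of counts per kilobase within each library, which library size does not alter. The size of a ratio depends on the same gene lengths, while the change of a ratio between single genes does not. NFKB2 to NFKB1, the precursors of p52 and p50, stood at 1.70, 1.72 and 1.90 under hypoxia and 1.04, 1.09 and 1.04 under normoxia, a 1.68-fold higher ratio. RELB to RELA was 0.263, 0.289 and 0.299 under hypoxia and 0.385, 0.385 and 0.353 under normoxia, 1.32-fold lower. NFKBIE to NFKBIA was 0.0832, 0.0857 and 0.0860 under hypoxia and 0.0763, 0.0757 and 0.0576 under normoxia, a log2 difference of 0.29 that was 0.16 without normoxia replicate 3. In these 3 ratios the groups did not overlap, and the exact two-sided permutation test gave p = 0.1, the smallest value that 3 libraries against 3 allow. NFKBIA to RELA, the classical inhibitor over its main target, was 3.17, 3.06 and 3.24 under hypoxia and 3.21, 3.21 and 3.50 under normoxia, with overlapping groups (exact permutation p = 0.3). The sum of the cytoplasmic inhibitors NFKBIA, NFKBIE and NFKBIB over the sum of the 5 subunits was 1.34, 1.30 and 1.37 under hypoxia and 1.13, 1.20 and 1.24 under normoxia, without overlap (exact permutation p = 0.1). This was a 1.13-fold higher ratio, and without hypoxia replicate 3 the exact permutation p was 0.2. Of its parts, NFKB1 fell from 32.6 to 18.5 FPKM and NFKBIB from 15.9 to 7.88 FPKM under hypoxia, so a higher ratio does not mean more inhibitor transcript. These are ratios of transcripts, and no protein was measured.

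**Figure D4:**
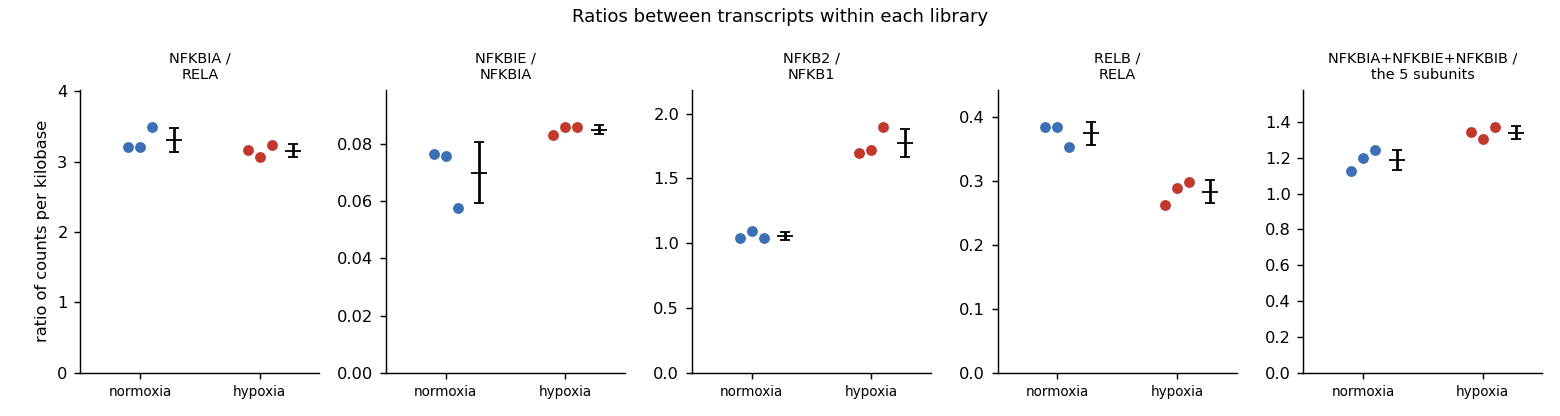
Ratios of counts per kilobase between the named transcripts within each library (blue, normoxia; red, hypoxia), with the mean and SD of 3 libraries and axes starting at 0. The NFKB2 to NFKB1 ratio is higher in all hypoxia libraries, the RELB to RELA ratio lower, and the NFKBIA to RELA ratio overlaps.

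The rest of the pathway was read from lists of genes by role. Among 6 tested ligands that activate NF-κB, of 10 listed, 2 rose and 3 fell (83.3% called, against 77.8% of all genes tested, 39.2% higher and 38.5% lower). TNF, the prototype ligand, measured 5.57, 7.74 and 8.41 CPM under hypoxia and 22.0, 22.4 and 18.1 CPM under normoxia, 2.87-fold lower (log2-fold change -1.52, SE 0.13, edgeR adjusted p = 1.35e-08). The interleukin-1 genes, whose products act through a MyD88-dependent receptor, stood at higher levels per length in normoxia, at 135 (IL1B) and 165 (IL1A) against 12.2 FPKM for TNF. IL1B fell from 215 ± 11.1 to 95.0 ± 5.58 CPM and IL1A from 353 ± 7.95 to 216 ± 8.08 CPM (SD, n = 3). TNFSF14 and TNFSF12, ligands of the TNF superfamily, rose by 1.36 and 0.97 on the log2 scale from low levels.

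Of 27 tested receptors and adaptors, out of 29, 11 rose and 11 fell (81.5% called, near the 77.8% of all genes tested), with a median log2-fold change of 0.082. TRADD, the adaptor of the TNF receptor, rose from 9.03 to 27.2 CPM (log2-fold change 1.59), and the receptor genes TNFRSF11A, which encodes RANK, and CD40 rose by 1.67 and 1.33. TLR3, a receptor for double-stranded RNA, rose from 1.46 to 5.84 CPM, and IL1RAP, the shared chain of the interleukin-1 receptor, from 33.1 to 73.1 CPM. In the other direction, IRAK1, the kinase below the interleukin-1 and Toll-like receptors, fell from 404 ± 18.3 to 179 ± 11.0 CPM. TNFRSF12A, the receptor of TNFSF12, fell from 147 to 77.1 CPM.

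In the IKK complex the genes for the 2 catalytic subunits moved in opposite directions. CHUK, which encodes IKKα, measured 23.1, 19.7 and 23.5 CPM under hypoxia and 52.3, 55.4 and 47.7 CPM under normoxia, 2.35-fold lower (edgeR adjusted p = 2.41e-10). IKBKB, which encodes IKKβ, measured 38.9, 38.3 and 38.1 CPM under hypoxia and 22.9, 24.4 and 26.5 CPM under normoxia, 1.56-fold higher (edgeR adjusted p = 3.15e-07). For both genes the groups were clearly apart. Per length, CHUK stood above IKBKB in normoxia, at 7.07 ± 0.467 against 4.08 ± 0.288 FPKM, and below it under hypoxia, at 3.11 ± 0.257 against 6.58 ± 0.111 FPKM (SD, n = 3). IKBKG, the scaffold subunit NEMO, fell by 0.50 on the log2 scale, as did IKBKE by 0.51 and MAP3K14, which encodes NIK, by 0.49. TAB2, an adaptor of the kinase TAK1, rose by 0.28. Over the 12 genes of this list, 4 rose, 5 fell and 3 did not pass (75% called, near the 77.8% of all genes tested). The number that rose was 2 without normoxia replicate 1, and the number that fell was 4 without normoxia replicate 3. IKBKG was highest in normoxia replicate 3, at 7.77 CPM against 4.94 and 6.26 in the other normoxia libraries and 4.16 to 4.68 under hypoxia.

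The other 7 genes of the IκB family and its cofactors included 5 that fell and 1 that rose (85.7% called, against 77.8% of all genes tested), with a median log2-fold change of -0.68 beside 0.023. BCL3, a nuclear IκB protein that works with p50 and p52, measured 40.2, 48.4 and 44.8 CPM under hypoxia and 15.4, 17.7 and 15.9 CPM under normoxia, 2.73-fold higher (log2-fold change 1.45, SE 0.085, edgeR adjusted p = 6.42e-11). The libraries of the 2 groups were far apart, so the nuclear IκB genes BCL3 and NFKBIZ moved in opposite directions. NFKBIB, which encodes the cytoplasmic inhibitor IκBβ, fell from 40.9 ± 1.73 to 19.7 ± 0.971 CPM, 2.08-fold (edgeR adjusted p = 5.26e-10). NKRF, a repressor of NF-κB promoters, fell by 1.10 on the log2 scale, NKIRAS1 by 0.81, NFKBID, a further nuclear IκB gene, by 0.68, and IKBIP by 0.30. NKIRAS2, at a log2-fold change of 0.053 (edgeR adjusted p = 0.424), did not pass.

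Of the 19 other negative regulators, 7 rose and 7 fell (73.7% called, near the 77.8% of all genes tested), with a median log2-fold change of 0.035. The number that rose was 5 to 6 with single libraries left out, and 9 where at least 10 counts were required in every library. TNIP3, which encodes a partner protein of A20, measured 4.52, 4.19 and 3.30 CPM under hypoxia and 20.3, 18.5 and 16.0 CPM under normoxia, 4.56-fold lower (edgeR adjusted p = 1.22e-10), while TNIP1, from the same family, was at 589 and 575 CPM (log2-fold change 0.035, edgeR adjusted p = 0.511). CYLD, a deubiquitinase that limits the pathway, rose from 21.2 to 35.1 CPM, and TRAF1 from 2.38 to 5.92 CPM. TRAF3 and TRAF2, which form with the cIAP proteins the complex that degrades NIK, fell from 94.1 to 58.4 and from 64.3 to 43.5 CPM. ZC3H12A, an RNase that degrades cytokine transcripts, fell from 147 to 102 CPM. IER3 passed with a log2-fold change of 0.18 (edgeR adjusted p = 0.0252), although its groups overlapped.

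Among 27 tested classical target genes, of 34 listed, 14 fell, 9 rose and 4 did not pass, so that 85.2% were called, against 77.8% of all genes tested. Beyond 2-fold, 10 fell and 5 rose, where 10.5% of all genes tested fell and 19.9% rose that far. The median log2-fold change was -0.18. CSF3, which encodes the growth factor G-CSF, had the largest decrease of the list. It measured 4.09, 5.03 and 4.75 CPM under hypoxia and 63.5, 65.9 and 54.8 CPM under normoxia, 13.2-fold lower (edgeR adjusted p = 7.78e-15). CXCL2, IL6, CXCL1 and CXCL3 fell by 3.35, 3.04, 2.50 and 2.33 on the log2 scale, with CXCL1 going from 743 ± 52.6 to 132 ± 17.0 CPM. CCND1, the cyclin D1 gene, fell from 451 to 97.1 CPM. Toward the other side, C3, the central complement component, rose from 1510 to 3103 CPM. LCN2, which encodes a protein of mucosal defense, rose from 995 to 1285 CPM, a 1.29-fold increase. Besides C3, the target genes that rose beyond 2-fold were named after their values were seen. They were ICAM1 (192 to 481 CPM), an adhesion molecule, GADD45B (20.6 to 80.6 CPM), TNFAIP8 (17.4 to 41.7 CPM) and MMP9. MMP9 had at most 20 counts in any library and an edgeR adjusted p of 0.0351. The number of target genes that rose was 8 to 9 with single libraries left out. SOD2, also named afterwards, stood at 572 and 580 CPM (log2-fold change 0.020, edgeR adjusted p = 0.756).

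**Figure D5:**
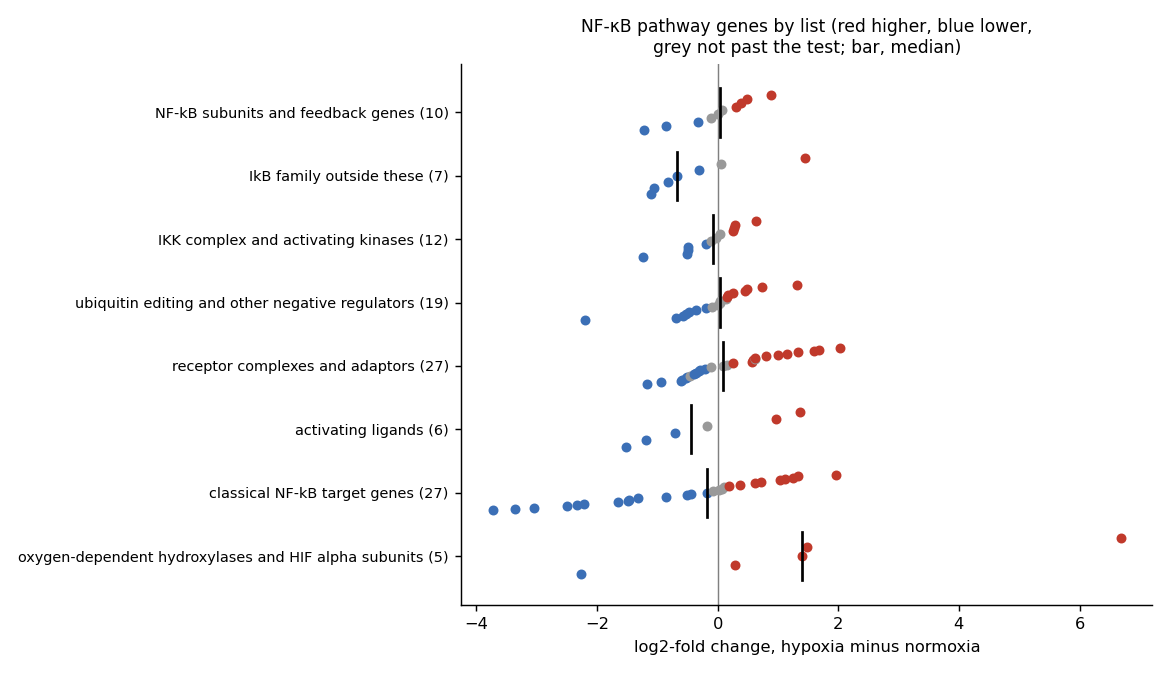
Log2-fold change, hypoxia minus normoxia, of each tested gene in the lists of NF-κB pathway genes, with the number tested in parentheses and a black bar at the median (red, higher; blue, lower; grey, not past the edgeR test). The subunits and feedback genes sit on both sides of 0 between -1.22 and 0.88, and the target genes reach down to -3.72.

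The oxygen-dependent hydroxylases were read beside these genes because proteins of the IκB and IKK families are among their known substrates. EGLN3, which encodes the prolyl hydroxylase PHD3, rose from 6.77 ± 3.58 to 695 ± 75.0 CPM, and EGLN1, which encodes PHD2, from 58.8 to 165 CPM. HIF1AN, the asparaginyl hydroxylase FIH, rose by 0.28 on the log2 scale. EGLN2 is listed with 0, 1 and 4 counts under normoxia and 0 under hypoxia and was not tested. Of the HIF alpha subunits, HIF1A fell from 320 ± 14.7 to 67.0 ± 10.4 CPM and EPAS1 rose from 105 to 276 CPM. All 14 genes of a list of hypoxia-induced transcripts rose, with a median log2-fold change of 2.68, among them VEGFA from 184 to 1278 CPM and, with the smallest change, LDHA at 0.47. The largest increases in that list were those of NDRG1 (log2-fold change 5.40), ANGPTL4 (3.89), ANKRD37 (3.79), PFKFB4 (3.67) and ADM (3.04). NDRG1 measured 163, 140 and 409 CPM in normoxia replicates 1, 2 and 3, so its normoxia mean leans on normoxia replicate 3. All 14 genes also rose without normoxia replicate 3.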

How the data were processed

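RNA-seq was made from 6 SCC25 libraries, 3 per condition, with a SMARTER mRNA-Seq kit. The authors deposited counts, whole numbers of reads per gene without normalization, and FPKM of the same genes. For 21775 of 21776 genes the FPKM equal the count divided by library total and a single length per gene, within 0.01%. That length was itself computed from the FPKM and count of the gene's highest library. The agreement therefore shows a shared length across libraries and does not check the length. The aligner, counting tool, annotation and use of strand are not given in the sources used here. The submitters' processing notes name the mouse builds GRCm38 and mm10, whereas 21075 of the 21776 Entrez numbers in the table, those of all 10 genes included, were found among human RefSeq genes. The deposited columns of GO and pathway names were used only as stated.

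Counts were tested with edgeR 4.0.16 (glmQLFit and glmQLFTest, R 4.3.3) with TMM normalization, filterByExpr, condition as the only term and Benjamini-Hochberg adjustment at 0.05. FPKM were tested with limma 3.58.1 as log2(FPKM + 1) where the mean FPKM was 1 or more. A standard error is the size of a log2-fold change divided by the square root of F. Log2 CPM used a prior count of 2. The floor of 3 counts equals 0.0806 to 0.105 CPM per library, far under the 10 genes. Replicates differed by more than sampling noise (chi-square per gene 4.90 to 10.8), so each library counted as 1 sample. The scripts were first tested on simulated data. With a mean log2 CPM over 4, edgeR found 44 of 44 log2 changes of 0.5 and 63 of 63 of 1. At 4 or less it found 10 of 51 and 22 of 36. Of its calls 6.71% were false, so changes of genes with low counts can be missed.

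The 10 genes and all lists were chosen with earlier results of these data known. Named from each list were the up to 6 largest changes in size past the threshold, with non-overlapping conditions and mean log2 CPM not under 1, and the 2 genes with the highest mean FPKM. The rule also lets a list gene that the filter left out, here EGLN2, be named as not tested. BIRC2, the cell type markers, CA9 and those marked in the text were named outside that rule. Alternatives were DESeq2's size factors, the DESeq2 1.42.0 Wald test, no filter, at least 10 counts in every library, a replicate block, each library left out, a log2-fold change beyond 1, limma on FPKM with pseudocounts of 1 and 0.1, and, added after the data were seen, summed counts of BIRC2 and BIRC3. Promoters came from RefSeq (GRCh38.p14), the first listed start of each gene unless stated, and gene overlaps from GENCODE v29.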

Additional observations from a re-analysis of the deposited data

How the results depend on the processing

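REL, NFKBIE, TNFAIP3 and BIRC3 stayed higher and NFKB1, RELB and NFKBIZ lower, past the threshold, under every alternative without a fold threshold. With single libraries left out, the log2-fold changes of NFKB1 ran from -0.91 to -0.84, NFKBIZ from -1.28 to -1.19, TNFAIP3 from 0.80 to 0.99 and NFKBIE from 0.19 to 0.36, the last with an adjusted p of at most 0.0488. NFKB2 passed without a filter (-0.16), was smaller where each library needed 10 or more counts (-0.038) and by limma on FPKM (-0.067), and ran from -0.15 to -0.091 with single libraries left out. RELA passed when each library needed 10 or more counts (0.16), and also by limma on FPKM (0.12 with a pseudocount of 1, 0.13 with 0.1), was 0.039 without a filter, and ran from 0.047 to 0.097 with single libraries left out. NFKBIA turned sign without a filter (-0.027) and was 0.091 where each library needed 10 or more counts and 0.061 by limma on FPKM. It ran from -0.039 to 0.042 with single libraries left out, and never passed the threshold. Beyond a log2-fold change of 1, 4338 genes were called, 0 of the 10 genes higher and 1 lower. The IKK list had 2 to 4 genes higher and 4 to 5 lower with single libraries left out. The other negative regulators then had 5 to 6 genes higher, against 7, and the target genes 8 to 9, against 9. The ligands had 1 gene higher by limma on FPKM. The number of genes called ran from 10669 to 11390 with single libraries left out, against 11090. The filters moved the median log2-fold change of all shared genes by -0.041 (none) and 0.077 (10 or more counts), and moved NFKB2, RELA and NFKBIA by about the same amounts, so those shifts are a common offset of the scaling. Limma on FPKM with a pseudocount of 1 moved that median by 0.050. The cause of the other shifts was not tested.

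No pairing by replicate number was seen, since same-numbered deviations correlated at 0.018, -0.069 and 0.0012, and differently numbered ones at -0.069 to 0.066. These values cannot tell whether libraries of the same number were prepared together. With the replicate block 10875 genes were called and no call among the 10 genes changed (TNFAIP3 0.87, NFKBIE 0.31, NFKB2 -0.12 with an edgeR adjusted p of 0.102). The results come from 1 cell line, 1 exposure and transcripts alone.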

Other observations

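The deposited table names pathways for each gene, and 3 of these terms were read after the values had been seen. Of 81 tested genes under "NF-kappa B signaling pathway", which holds 7 of the 10 genes, 24 were higher and 36 lower under hypoxia by the edgeR test, with a median log2-fold change of -0.14. Of 100 tested genes under "TNF signaling pathway", 37 were higher and 44 lower, with a median of -0.014. Of 85 tested genes under "HIF-1 signaling pathway", 45 were higher and 31 lower, with a median of 0.24. Over all genes tested, 39.2% were higher and 38.5% lower, with a median of 0.023. These counts are descriptions, and the lists share genes with each other and with the 10 genes.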
